A study of Mus musculus with 10 samples.

Results

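The transcripts described here are those of 10 epithelial keratins, Krt5, Krt7, Krt8, Krt13, Krt14, Krt15, Krt17, Krt18, Krt19 and Krt23, taken by symbol from a table of 55291 genes, in which all 10 were found. Submandibular gland RNA was sequenced from 8-week-old mice of the strain C57BL /6J, labelled female, with 5 samples in each of 2 groups. Ligation closed the right submandibular duct with sutures near both of its ends, which blocks the outflow of saliva. The sham group had the skin opened and the gland dissected without a tie on the duct. Glands of both groups were taken at day 7. Each library is whole gland, so that fewer cells of a type and less RNA per cell cannot be told apart in any value given here. The question was how the keratins of basal and myoepithelial cells compare with those of simple and ductal epithelium after obstruction.

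Keratins are the intermediate filament proteins of epithelial cells, and a filament forms only when a type I keratin pairs with a type II keratin. Krt8 (type II) and Krt18 (type I) are the primary pair of simple epithelium, and in the salivary gland they are found in acinar and ductal cells. Krt7 (type II) and Krt19 (type I) join them in ducts. Krt5 (type II) and Krt14 (type I) are the pair of basal cells and, in glands, of myoepithelial cells, where Krt15 and Krt17 (type I) can accompany them. Krt13 (type I) belongs to stratified epithelium of mucosae, and Krt23 (type I) is a small keratin of glandular epithelium. For the description the members were taken as 5 simple and ductal keratins (Krt7, Krt8, Krt18, Krt19, Krt23) and 5 basal and stratified keratins (Krt5, Krt13, Krt14, Krt15, Krt17), 7 of type I and 3 of type II in all.

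Values are FPKM (a level scaled to the length of the gene model and to the depth of the library), and the libraries held 12105738 to 17305592 reads assigned to genes, as recovered from the values. Against the female label, 4 genes of the Y chromosome (Ddx3y, Kdm5d, Uty, Eif2s3y) had at least 0.770 FPKM in each of the 10 libraries, and Xist had at most 0.0267 FPKM. Some libraries held transcripts that mark the parotid gland or lymph nodes, and their source was not tested. The parotid amylase gene Amy1 stood at 3358 FPKM in sham 1 and at 2682, 8365 and 3855 FPKM in ligated 2, 3 and 5, against at most 28.3 FPKM in the other 6. All 7 parotid markers together summed to 13683 to 27225 FPKM in sham and 4656 to 46569 FPKM in ligated glands, a sum that includes Car6, which every library held. The 11 lymph node markers summed to 608 FPKM in sham 1 and to 381, 385 and 474 FPKM in ligated 1, 2 and 3, against at most 22.1 FPKM in the other 6. Among acinar markers, Aqp5, the acinar water channel, had a lowest value of 44.0 FPKM over all libraries and Mucl2 one of 3940 FPKM. Other acinar markers, Smgc, Dcpp1, Dcpp2 and Dcpp3, stood at 0 FPKM in ligated 4. Which gland the acinar transcripts came from was not tested.

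The simple keratins Krt19, Krt8, Krt18 and Krt7 were called higher in ligated glands, and no keratin was called lower with the values as deposited. A gene was called changed when limma gave a Benjamini-Hochberg adjusted p under 0.05 over all 11856 genes tested and its log2 fold change reached 1 in either direction. Of the 10 members 9 reached the 1 FPKM in at least 5 libraries needed for the test. Of these, 4 of 5 simple keratins and 0 of 4 basal keratins were called higher, and 0 were called lower, where 17.1% of all genes were called higher and 1.16% lower. The median log2 fold change of the 9 was 0.91, beside 0.53 for all genes tested. In 0 of the 9 did every ligated library lie above every sham library, a pattern found in 30.2% of all genes tested. Ligated 1 lay within the sham range for 8 of the 10 members.

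**Figure D1:**
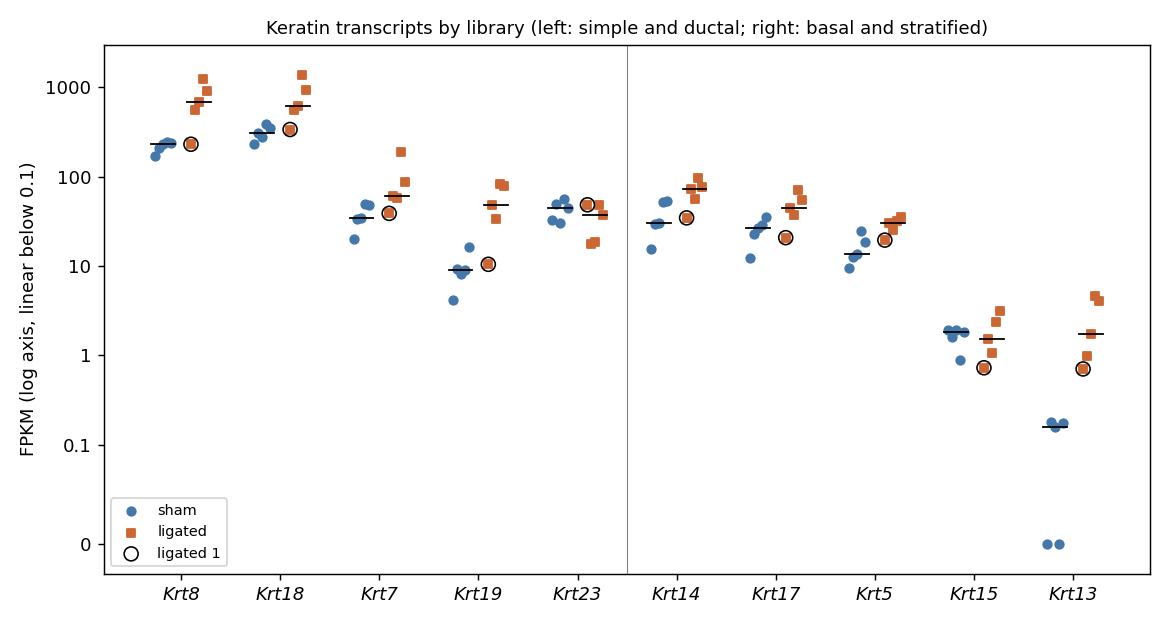
FPKM of the 10 keratins in each library on a log axis that is linear below 0.1, with sham libraries as circles, ligated libraries as squares, group medians as bars and ligated 1 circled. For Krt8 and Krt18 4 ligated libraries lie above all 5 sham libraries while ligated 1 lies among the sham libraries.

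Krt8 and its partner Krt18 were the most abundant of the keratins. Krt8 stood at 169, 207, 229, 244 and 239 FPKM in sham 1 to 5 and at 230.2, 555, 677, 1236 and 906 FPKM in ligated 1 to 5. Ligated 2 to 5 lay above every sham library, whereas ligated 1 lay between sham 3 and sham 5. Krt8 rose by a log2 fold change of 1.54 ± 0.38 (SE, limma on log2(FPKM + 1), adjusted p = 0.00698), the scale of all fold changes below. Krt18 stood at 232, 310.3, 275, 388 and 348 FPKM in sham 1 to 5 and at 337, 561, 609.9, 1379.7 and 935 FPKM in ligated 1 to 5. Ligated 4 was the highest library for both partners, and ligated 1 again lay within the sham range. The log2 fold change of Krt18 was 1.16 ± 0.34 (limma adjusted p = 0.0147), and its call was lost without ligated 4, where it stood at 0.90 (adjusted p = 0.0267) and so below the fold threshold. On GRCm38, Krt8 (ENSMUSG00000049382.10) lies on chromosome 15 at 101996698 to 102004482 on the minus strand and Krt18 (ENSMUSG00000023043.7) at 102028180 to 102032027 on the plus strand, so that they point away from each other with 23697 bases between their starts. Of the 50-base windows of the Krt8 transcript 29.7% also occur in another gene, mostly in the pseudogene Krt8-ps, which was listed at 0 to 2.44 FPKM.

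The bases before the starts of this pair are shown beside those of Krt5, the basal type II keratin, and Krt13, the member whose groups did not overlap. Each run lies before the annotated start, is read from RefSeq's GRCm38.p6 table, holds no annotated exon and is given 5′ to 3′ on the strand of the gene. Capitals mark ATAAAA, a variant of the TATA box chosen after the sequences had been read, and TGANTCA on either strand. The latter is a loose form of the AP-1 core, in which N stands for any base. The motifs do not overlap in these windows.
Krt8, chr15:102004483-102004592, minus strand: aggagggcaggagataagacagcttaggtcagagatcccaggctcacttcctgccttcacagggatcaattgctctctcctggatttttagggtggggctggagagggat
Krt18, chr15:102027966-102028179, plus strand: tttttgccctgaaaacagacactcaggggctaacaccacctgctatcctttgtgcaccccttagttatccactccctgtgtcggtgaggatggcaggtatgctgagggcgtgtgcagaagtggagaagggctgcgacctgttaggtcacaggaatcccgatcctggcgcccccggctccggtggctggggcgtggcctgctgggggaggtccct
Krt5, chr15:101712906-101713155, minus strand: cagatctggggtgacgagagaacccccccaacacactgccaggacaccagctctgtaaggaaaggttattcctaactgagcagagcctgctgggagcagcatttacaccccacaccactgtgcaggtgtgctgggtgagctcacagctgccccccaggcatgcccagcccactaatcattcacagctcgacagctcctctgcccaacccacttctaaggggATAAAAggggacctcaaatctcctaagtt
Krt13, chr11:100121567-100121816, minus strand: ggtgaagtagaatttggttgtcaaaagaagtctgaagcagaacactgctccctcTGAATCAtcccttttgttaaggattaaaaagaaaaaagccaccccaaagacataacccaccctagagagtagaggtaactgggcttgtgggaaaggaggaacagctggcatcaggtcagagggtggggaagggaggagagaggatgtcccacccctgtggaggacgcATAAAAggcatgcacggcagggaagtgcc
ATAAAA occurred once each before Krt5 and Krt13 and not in the shorter windows of Krt8 (110 bases) and Krt18 (214 bases). TGANTCA occurred once, before Krt13, with A as its middle base. Of the windows not shown, those of the simple keratins Krt23 and Krt7, the latter overlapping annotated exons, held ATAAAA once each, and that of the basal keratin Krt14, inside the gene, held none. Krt13 had a second entry, inside the gene, with TGANTCA at 2 places and no ATAAAA. The GC box GGGCGG occurred in none of the 4 windows shown. Of those not shown, the window of Krt7 held it at 4 places, and those of Krt23, Krt14 and the second Krt13 entry held none. Among the 250 bases before each of 32851 starts in the table, 17.0% held ATAAAA, 6.75% TGANTCA and 32.7% GGGCGG, counting both strands. A match or its absence in a window is a description of these letters and was not tested against the expression values. Of the 10 members 7 had an entry in the table.

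Krt19, a type I keratin of ducts that lacks the usual tail domain, showed the largest fold change of the 9 tested members. It stood at 4.13, 9.24, 8.04, 9.04 and 16.3 FPKM in sham 1 to 5 and at 10.4, 48.4, 33.1, 81.9 and 79.2 FPKM in ligated 1 to 5. Ligated 2 to 5 lay above every sham library and ligated 1 below sham 5. Krt19 rose by 2.12 ± 0.51 (limma adjusted p = 0.00628), and without any 1 library the change ranged from 1.87 to 2.59. None of its 50-base windows occurs in a transcript of another gene (0%).

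Krt7, the other type II keratin of ducts, stood at 19.8, 33.8, 34.0, 49.9 and 48.4 FPKM in sham 1 to 5. In ligated 1 to 5 it stood at 38.8, 60.2, 57.7, 187 and 87.9 FPKM. The lowest of the 4 ligated libraries outside the sham range exceeded the highest sham library by less than the sham libraries differed among themselves, and ligated 4 stood far above the rest. Krt7 was called higher at 1.05 ± 0.39 (limma adjusted p = 0.0380), close to the fold threshold. The call was lost without ligated 2 (1.12, adjusted p = 0.0511), 4 (0.71, 0.0642) or 5 (0.99, 0.0727) and without sham 1 (0.84, 0.0728), 2 (1.03, 0.0728) or 3 (1.03, 0.0738). It was also lost with no filter on low values (1.05, 0.0795). The gene model of Krt7 used here spans 7049 exon bases against 4094 in its longest coding transcript, which lowers its level per length relative to the other keratins.

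Krt23 was the 1 simple keratin that was not called. It stood at 32.4, 48.8, 29.9, 56.0 and 44.5 FPKM in sham 1 to 5 and at 48.4, 17.8, 18.3, 47.5 and 36.9 FPKM in ligated 1 to 5. Ligated 2 and 3 lay below every sham library, while ligated 1, 4 and 5 lay within the sham range. Its log2 fold change of -0.40 ± 0.31 did not pass (limma adjusted p = 0.274, 95% confidence interval -1.09 to 0.29).

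The basal pair Krt14 and Krt5 was higher in 4 of 5 ligated libraries than in any sham library, with a fold change under the threshold for a call. Krt14 stood at 15.6, 29.8, 30.5, 52.3 and 53.3 FPKM in sham 1 to 5 and at 34.5, 72.2, 56.5, 95.4 and 75.7 FPKM in ligated 1 to 5. Krt5 stood at 9.40, 12.7, 13.4, 24.4 and 18.7 FPKM in sham 1 to 5 and at 19.5, 30.1, 25.6, 32.0 and 34.9 FPKM in ligated 1 to 5. For both, the sham libraries differed among themselves by more than the group means did, with sham 1 the lowest, and ligated 1 lay within the sham range. The log2 fold change of Krt14 was 0.91 ± 0.35 (limma adjusted p = 0.0428) and that of Krt5 0.86 ± 0.24 (limma adjusted p = 0.0126). Both passed the adjusted p, as 56.8% of all genes tested did in this direction and 3.35% in the other, and neither reached a change of 1. Both were called without sham 4 (Krt14 1.07, Krt5 1.02), and Krt14 also without sham 5 (1.08) and without ligated 1 (1.13). Without any 1 of the other libraries, sham 1 to 3 and ligated 2 to 5, Krt14 did not pass (limma adjusted p = 0.0597 to 0.0943). With no filter on low values Krt14 did not pass either (limma adjusted p = 0.0871). The limma adjusted p of Krt5 stayed at 0.00563 to 0.0340 with any 1 library left out. Of the 50-base windows of Krt14 14.4% are shared with other genes, mostly Krt16, and of those of Krt5 12.2%, mostly with Krt6a.

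Krt17, a basal keratin also known from injured epithelium, stood at 12.4, 22.6, 26.8, 28.9 and 35.1 FPKM in sham 1 to 5. In ligated 1 to 5 it stood at 20.7, 44.5, 37.3, 69.9 and 55.0 FPKM. As for Krt14, ligated 4 was the highest library and sham 1 the lowest. Its log2 fold change of 0.80 ± 0.33 did not pass (limma adjusted p = 0.0575, 95% confidence interval 0.06 to 1.53), and without ligated 1 it was called at 1.05 (adjusted p = 0.0124).

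Krt15, a keratin of basal progenitor cells, was low throughout, at 0.888 to 1.93 FPKM in sham and 0.724 to 3.12 FPKM in ligated glands, which rest on 18 to 73 reads per library. The groups overlapped, with ligated 1 below and ligated 4 and 5 above every sham library. The log2 fold change was 0.02 ± 0.24 (limma adjusted p = 0.956, 95% confidence interval -0.51 to 0.54). Krt13 stood at 0, 0.181, 0.159, 0 and 0.176 FPKM in sham 1 to 5 and at 0.703, 0.977, 1.72, 4.60 and 4.02 FPKM in ligated 1 to 5. Its read numbers were 0, 4, 5, 0 and 4 in the sham libraries and 18, 23, 42, 120 and 97 in the ligated ones. It was the 1 member of which every ligated library lay above every sham library. Only 3 libraries reached 1 FPKM, so it was not among the genes tested. With no filter its change was 1.46 ± 0.33 (limma adjusted p = 0.0103), a value that depends on the pseudocount at such low levels, where 7.68% of 26754 genes were called higher and 0.404% lower.

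The calls depended on how libraries were scaled. The median log2 fold change of all genes was 0.53 as deposited. After median-ratio scaling it was -0.01, with 62.0% instead of 93.6% of the calls higher. In that scaling 0 of the 9 keratins were called higher, where 6.84% of all genes were, and 1 was called lower, Krt23 at -1.06 ± 0.34 (adjusted p = 0.0362), where 4.2% of all genes were. Krt19 then stood at 1.48 ± 0.53 (adjusted p = 0.0548) and Krt8 at 0.86 ± 0.39 (adjusted p = 0.119), while Krt14 (0.25), Krt5 (0.21) and Krt17 (0.14) came close to 0. When the libraries were instead scaled by 9 pan-epithelial genes, Krt19 (1.82 ± 0.38, adjusted p = 0.00817) and Krt8 (1.21 ± 0.32, adjusted p = 0.0262) were called higher, where 7.92% of all genes were, and 0 lower, where 1.62% were. In that scaling Krt18 (0.84, adjusted p = 0.0616), Krt7 (0.73), Krt14 (0.60) and Krt5 (0.55) did not pass. Quantile normalization left 1 keratin called higher, Krt19 at 1.57 (adjusted p = 0.0494), where 6.07% of all genes were, and 0 lower, where 4.19% were. Rescaling to the same sum gave 7 called higher, where 46.1% of all genes were, and 0 lower, where 0.548% were. With limma-voom on the recovered reads the same 4 were called higher, where 27% of all genes were, and 0 lower, where 1.66% were. In the plot of changes by scaling, Krt19 and Krt8 had the highest changes and Krt15 and Krt23 the lowest. Over all alternatives tried, the adjusted p ranged from 7.31e-05 to 0.106 for Krt19, from 7.31e-05 to 0.131 for Krt8, from 0.000395 to 0.314 for Krt18 and from 0.00289 to 0.506 for Krt7. For the basal pair it ranged from 0.00377 to 0.639 for Krt14 and from 0.00106 to 0.556 for Krt5, and for Krt23 from 0.0362 to 0.847.

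**Figure D2:**
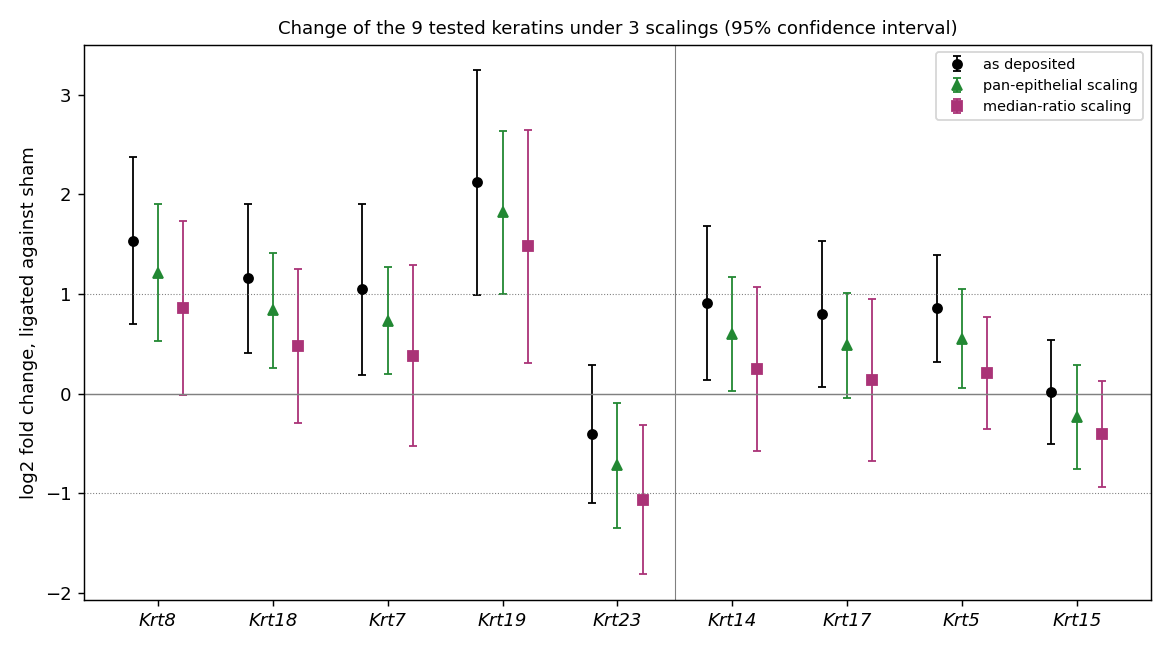
Log2 fold change of the 9 tested keratins, ligated against sham, with FPKM as deposited (circles), scaled by 9 pan-epithelial genes (triangles) and after median-ratio scaling (squares), each with its 95% confidence interval from limma; dotted lines mark a change of 1. Krt19 lies at 2.12, 1.82 and 1.48 and Krt23 at -0.40, -0.72 and -1.06 in the 3 scalings.

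A share of the keratin sum does not change when a library is rescaled. The 10 keratins summed to 496 to 853 FPKM in sham and 741 to 3137 FPKM in ligated glands, which was 0.0984% to 0.163% and 0.163% to 0.869% of all FPKM. Krt8 and Krt18 together made up 72.9% to 80.7% of the keratin sum in sham glands (median 76.5%) and 76.6% to 84.8% in ligated glands (median 83.0%). The basal keratins together made up 7.92% to 13.6% (median 11.2%) and 6.51% to 10.7% (median 8.05%). The groups overlapped in each of these shares. Krt23 took 4.61% to 7.22% of the sum in sham glands, 6.53% in ligated 1 and 1.21% to 1.66% in ligated 2 to 5. Krt19 took 0.832% to 2.03% in sham glands and 1.41%, 3.48%, 2.18%, 2.61% and 3.57% in ligated 1 to 5. For both shares ligated 1 lay within the sham range and ligated 2 to 5 outside it. A share also falls when the sum rises: Krt23 itself, at 47.5 and 36.9 FPKM in ligated 4 and 5, lay within its sham range there, where the keratin sum was 3137 and 2217 FPKM.

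**Figure D3:**
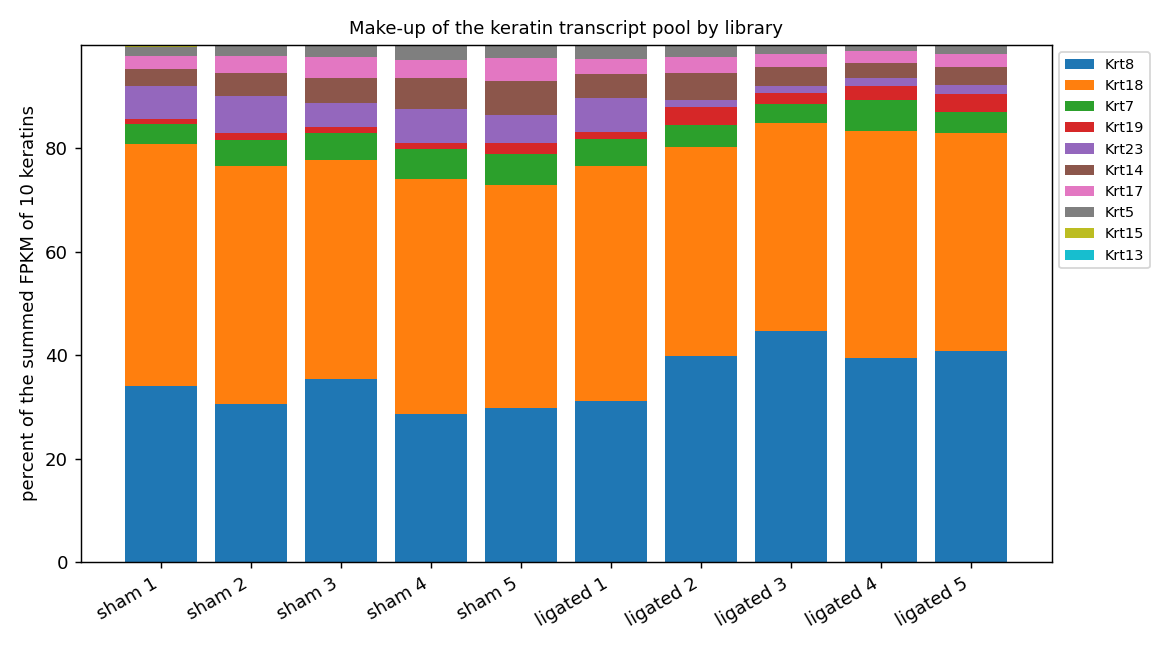
Percent of the summed FPKM of the 10 keratins taken by each, 1 bar per library. Krt8 and Krt18 fill 72.9% to 84.8% of every bar, and the Krt23 band is at 1.21% to 1.66% in ligated 2 to 5 and at 4.61% to 7.22% in the other 6 libraries.

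Ratios within a library compare partners and classes. Type I keratins summed to 1.34 to 1.68 times type II in sham glands, to 1.57 times in ligated 1 and to 0.997 to 1.16 times in ligated 2 to 5. For the simple pair, the ratio of Krt18 to Krt8 was 1.38, 1.5, 1.20, 1.59 and 1.45 in sham 1 to 5 and 1.46, 1.01, 0.901, 1.12 and 1.03 in ligated 1 to 5. Its log2 value, taken on FPKM + 1 like all log2 ratios here, was 0.50 ± 0.16 in sham and 0.12 ± 0.26 in ligated glands (mean ± SD, n = 5 each), a difference of -0.38 ± 0.14 (SE, two-sided exact permutation p = 0.0317, 0.127 when adjusted over 4 ratios). No split of 5 against 5 can give a p below 0.00794. For the basal pair, the log2 ratio of Krt14 to Krt5 was 1.10 ± 0.28 in sham and 1.16 ± 0.27 in ligated glands (difference 0.06 ± 0.17, exact permutation test, p = 0.690, adjusted p = 0.690). The sign of that small difference turned without sham 1 (-0.05) or ligated 4 (-0.04).

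Between the classes, the log2 ratio of Krt5 to Krt8 was -4.03, -3.92, -3.99, -3.27 and -3.61 in sham 1 to 5. It was -3.50, -4.16, -4.67, -5.23 and -4.66 in ligated 1 to 5. Ligated 2 to 5 lay below every sham library and ligated 1 did not, and the difference of -0.68 ± 0.32 did not pass (two-sided exact permutation p = 0.0635, 0.127 when adjusted). Without ligated 1 the difference was -0.92 for Krt5 to Krt8 and -0.48 for Krt18 to Krt8 (both exact permutation tests, adjusted p = 0.0317). The type I counterpart, Krt14 to Krt18, was -3.17 ± 0.44 in sham and -3.41 ± 0.34 in ligated glands (difference -0.24 ± 0.25, exact permutation test, p = 0.357, adjusted p = 0.476). A shift from basal towards simple keratins was not called over all 10 libraries in either type.

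**Figure D4:**
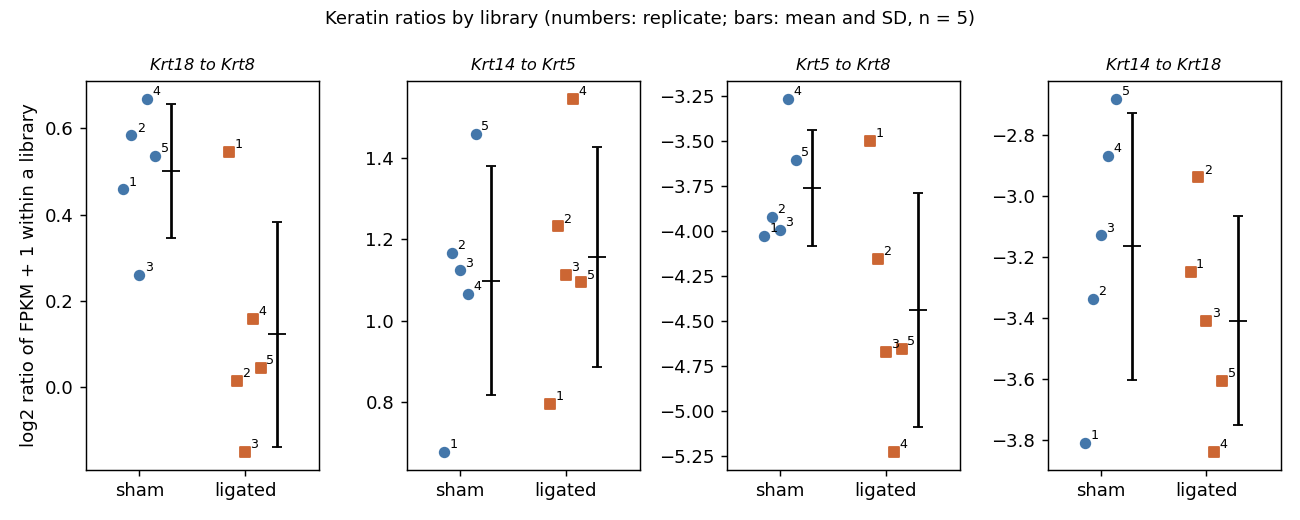
Log2 ratio of FPKM + 1 between keratins within each library for 4 pairs, with sham libraries as circles, ligated libraries as squares, replicate numbers beside them and the mean and SD of each group (n = 5). In the ratios of Krt18 to Krt8 and of Krt5 to Krt8 ligated 2 to 5 lie below all sham libraries and ligated 1 lies among them.

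Ligated 1 was the lowest ligated library for 9 of the 10 members and ligated 4 the highest for 7. Sham 1 was the lowest sham library for 8, a tie with sham 4 at 0 for Krt13 included. Markers of other cells varied alongside. The 11 acinar markers summed to 61727 FPKM in ligated 1, against 12240 to 27462 FPKM in ligated 2 to 5 and at least 143775 FPKM in sham glands. Of these markers 8 were called lower, where 1.16% of all genes tested were. The sum in ligated 1 was mostly Mucl2 (44263 FPKM) and Prol1 (16199 FPKM), and Aqp5, Bhlha15 and Spdef were also highest there among ligated libraries. Other acinar markers went the other way: Dcpp1, Dcpp2, Dcpp3 and Smgc were lower in ligated 1 than in ligated 2, 3 and 5. The 7 skeletal muscle markers, all 7 called higher, summed to 29.1, 452, 203, 687 and 327 FPKM in ligated 1 to 5 and to at most 3.97 FPKM in sham glands. The 6 adipocyte markers, all 6 called higher, summed to 193, 224, 495, 802 and 376 FPKM in ligated 1 to 5 and to at most 15.8 FPKM in sham glands. Among all genes tested 17.1% were called higher. Among ligated libraries, muscle and adipocyte markers were lowest in ligated 1 and highest in ligated 4, as most keratins were, and their part in the keratin values was not tested.

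Calls were repeated without the libraries that held these transcripts. Of the ligated libraries without parotid amylase, ligated 1 held the lowest and ligated 4 the highest Krt8. Without the 4 libraries with parotid transcripts, which leaves 2 ligated and 4 sham glands, 0 keratins were called, with Krt19 at 1.45 (adjusted p = 0.106) and Krt8 at 1.22 (adjusted p = 0.102), where 18.3% of all genes were called higher and 0.666% lower. Without the 4 with lymph node transcripts, which leaves ligated 4 and 5 and 4 sham glands, 6 were called higher (Krt7, Krt8, Krt14, Krt17, Krt18 and Krt19), where 21.9% of all genes were, and 0 lower, where 1.41% were. For each of these 6, the ligated libraries kept, ligated 4 and 5, held the highest ligated values. The sham library left out, sham 1, held the lowest sham value of each. Skin and mesothelium, which carry keratins of their own, had low marker levels. The 8 markers of skin epidermis summed to 0.553 to 1.86 FPKM in sham and 2.04 to 3.70 FPKM in ligated glands, with 6 of 8 below 1 FPKM everywhere and Calm4 at 0. The 5 mesothelial markers summed to 0.105 to 0.892 and 2.80 to 5.06 FPKM, with Upk3b at 0 in every library and Msln, which encodes mesothelin, called higher (1.55 log2 fold change). In both sums every ligated library lay above every sham library. The ligated sums were of the size of Krt13 in ligated glands (0.703 to 4.60 FPKM), and their part in its values was not tested.

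Other genes of ducts were measured beside the ductal keratins. Of 10 markers of ducts and ionocytes 1 was called higher, Kit, and 3 were called lower, where 17.1% and 1.16% of all genes tested were. The median log2 fold change of the 10 markers was -0.46. They summed to 143 to 307 FPKM in sham and 68.5 to 249 FPKM in ligated glands, and none was at 0. Of 8 markers of the granular convoluted tubule, the secretory duct segment of rodents, 6 were called lower and 0 higher, beside the same shares of all genes. These summed to 27532 to 56974 FPKM in sham and 7074 to 47552 FPKM in ligated glands, with ligated 1 the highest ligated library.

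Myoepithelial cells carry Krt5 and Krt14, and their contractile genes were measured as well. Of 8 markers 5 were tested and 0 were called in either direction, where 18.3% of all genes tested were. The median log2 fold change of the 5 was 0.00, beside 0.53 for all genes. The 8 markers summed to 169 to 311 FPKM in sham and 167 to 336 FPKM in ligated glands. Acta2, smooth muscle actin, ranged from 109.9 to 199 FPKM over sham libraries and from 125.6 to 244 FPKM over ligated ones. Their difference from the log2 changes of Krt5 (0.86) and Krt14 (0.91) was not tested.

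Lists of genes around the anchoring of keratin filaments were read against the 17.1% of all genes called higher and the 1.16% called lower. Desmosomes tie keratin filaments of neighbouring cells together, and 0 of 9 tested genes of 10 were called, with a median log2 fold change of 0.55. Perp, a desmosomal membrane protein, was the most abundant of them by the mean over all 10 libraries, with sham libraries at 108 ± 27.7 and ligated libraries at 104 ± 31.6 FPKM (mean ± SD, n = 5), followed by Jup, which encodes plakoglobin, at 37.2 ± 8.20 and 56.2 ± 22.3 FPKM. Of 9 tested genes listed as filament linkers 1 was called higher, Plec, which encodes the plakin plectin (1.03 ± 0.21, limma adjusted p = 0.00277). That list also held Krtcap2 and Krtcap3, which are named as keratinocyte-associated proteins rather than as linkers, and neither was called. The mean level of Plec was 18.2 ± 3.66 FPKM in the sham group and 38.8 ± 10.8 FPKM after ligation, with all ligated libraries above all sham libraries. Hemidesmosomes anchor basal keratin to the basement membrane, and 2 of 7 genes were called higher. Among them was the integrin chain Itgb4 (1.22 ± 0.29, limma adjusted p = 0.00535). After median-ratio scaling 0 genes of the linker list and 0 hemidesmosome genes were called higher, where 6.84% of all genes were.

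Transcription factors of basal and simple epithelium gave 0 calls among 11 tested of 13, where 18.3% of all genes were called, with a median of 0.11. Ehf, an epithelial ETS factor, stood at 93.7 ± 18.5 and 75.2 ± 27.6 FPKM, and Sox10, a factor of acinar and myoepithelial cells, at 40.7 ± 8.85 and 36.0 ± 7.92 FPKM (mean ± SD, n = 5). Trp63, which encodes p63 and is required for basal cells, was named outside the rule after its values were seen. It stood at 1.20 ± 0.314 and 2.34 ± 0.581 FPKM (0.59 ± 0.16, limma adjusted p = 0.0108), under the fold threshold. After median-ratio scaling 3 of these factors were called lower, where 4.2% of all genes were.

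Most of the tested intermediate filament genes outside the keratins were called higher. Of 7 tested of 9, 5 were called higher and 0 lower, with a median of 1.60, where 17.1% and 1.16% of all genes were called. After median-ratio scaling 3 were called higher, where 6.84% of all genes were. Vim, the vimentin gene of mesenchymal and immune cells, rose by 2.96 ± 0.39 from 29.0 ± 23.2 to 207 ± 77.5 FPKM, and Des, the desmin gene of muscle, by 3.24 ± 0.52 (limma adjusted p = 0.000326 and 0.000837). Lmnb1 (2.10 ± 0.62) and Nes (1.60 ± 0.25) were called as well, with Lmnb1, a nuclear lamin, at 26.3 FPKM in sham 1 and at most 1.97 FPKM in the other sham libraries. The fifth was Lmna (1.57 ± 0.22), which encodes the nuclear lamins A and C.

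**Figure D5:**
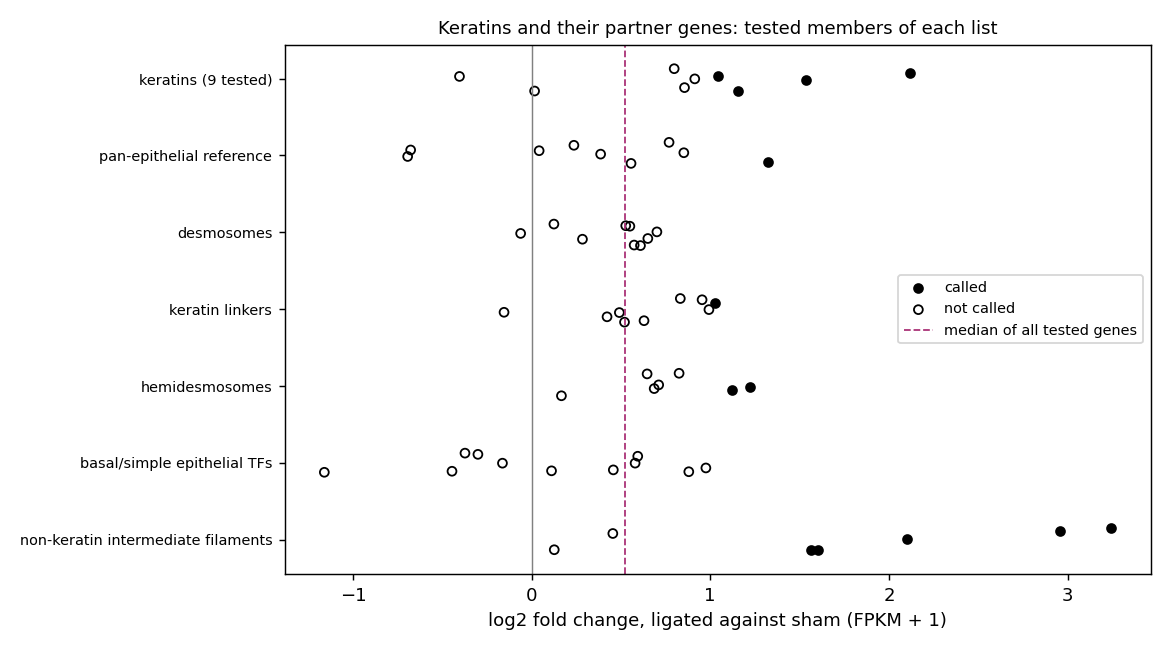
Log2 fold change on the FPKM + 1 scale of each tested gene of 7 lists, filled where called and open where not, with the median of all tested genes (0.53) as a dashed line. Called keratins lie between 1.05 and 2.12, desmosome genes lie on both sides of the dashed line with none called, and the non-keratin intermediate filament genes reach 3.24.

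Of the pan-epithelial genes 1 of 9 was called higher, Cdh1, which encodes E-cadherin (1.32 ± 0.37, limma adjusted p = 0.0124), where 17.1% of all genes were. After median-ratio scaling 0 of the 9 were called higher and 2 lower, where 6.84% and 4.2% of all genes were. By the root mean square difference of centred log2(FPKM + 1) over the 10 libraries, Cdh1 was also the gene most like Krt8 among those with a mean of at least 10 FPKM, with a difference of 0.18. Cdh1 stood at 34.9, 46.8, 48.4, 64.5 and 64.5 FPKM in sham 1 to 5 and at 48.9, 120.2, 121, 231 and 205 FPKM in ligated 1 to 5. The ratio of Krt8 to Cdh1 was 3.71 to 4.83 in sham and 4.42 to 5.58 in ligated glands, with ligated 3 and 4 above every sham library. That of Krt18 to Cdh1 was 5.39 to 6.65 in sham glands and 6.88, 4.66, 5.03, 5.98 and 4.56 in ligated 1 to 5. That of Krt5 to Cdh1 was 0.269 to 0.379 in sham glands and 0.398, 0.251, 0.211, 0.139 and 0.170 in ligated 1 to 5. For Krt5, ligated 2 to 5 thus lay below every sham library and ligated 1 above. These ratios were not tested. The next most like Krt8 were Alox12, a lipoxygenase (0.18), and Cx3cl1, the chemokine fractalkine (0.20). By the same measure Krt18 was 0.27, Krt13 0.295 and Krt23 1.24 from Krt8. Closest to Krt14 were Fam129b (0.25), Tcim (0.28) and the hemidesmosome gene Itgb4 (0.28), while Krt17 (0.19) and Krt5 (0.25) were as close or closer and Krt8 lay at 0.52.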

How the data were processed

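Total RNA of whole submandibular glands, 5 sham and 5 ligated, was sequenced from mRNA libraries. The authors deposited 1 table of FPKM per gene, and the submitters' processing notes name the build GRCm38 (mm10). Which aligner, counter and gene annotation made it is not given in the sources used here. All 10 sample columns were mapped by their names and 0 columns were left over. Values times GENCODE exon length came out as whole reads (within 0.01, for values under 200 reads) for 98.3% to 98.4% of genes tried, using the 96.2% of genes matched by symbol. Of the whole numbers up to 10 reads, 68.8% to 77.4% were even. Whether both reads of a fragment were counted was not tested, so the fragments behind a value may be fewer than the reads given.

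Log2(FPKM + 1) was compared with limma 3.58.1 (R 4.3.3) over genes at 1 FPKM or more in at least 5 libraries, with Benjamini-Hochberg adjustment over all of them. Within-library ratios were compared by exact permutation tests, two-sided, adjusted over 4 ratios. On data simulated for 11856 genes, 87% of changes of 1.5 and 98% of changes of 3 on the log2 scale were recovered, with 4 false calls. The rate of false calls in the measured libraries was not tested. The labels do not say that each sample came from a separate mouse, so p-values measure the spread between these samples. Read numbers cover counting error only.

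The members and all lists were chosen with earlier results of these data known. Genes named beside the members were up to 4 called genes of largest change in each context list, or the 2 most abundant where none was called, up to 5 tested keratins of highest mean outside the 10, and the 3 genes most like Krt8 and Krt14. Alternatives were the scaling, pseudocount, filter, replicate block, each library left out, limma-voom on the recovered reads and, chosen after seeing the data, leaving out the libraries with parotid or with lymph node transcripts. The values of 1 gene that this rule names are not reported here.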

Additional observations from a re-analysis of the deposited data

Results flagged for a closer look

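Krt15 in sham 4 stood apart from the other sham libraries. Its log2(FPKM + 1) was 0.917, the lowest of the 5, and the gap to the nearest other library was 0.717 of the range of the group, above the Dixon limit of 0.71. The value was 0.888 FPKM. It was the 1 case among 28 groups of 5 samples examined, and chance gives about 1 in 20.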

How the results depend on the processing

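The number of keratins called higher, 4, was 7 after rescaling libraries to the same sum, 2 with scaling by pan-epithelial genes, 1 after quantile normalization and 0 after median-ratio scaling, where 1 was called lower. It was 0 without the 4 libraries with parotid transcripts and 2 to 6 with any 1 library left out, the lowest without ligated 4. All genes called, 2169, became 5529 with the same sum (98.8% higher), 3359 with limma-voom on recovered reads, 1309 with median-ratio scaling (62.0% higher), 1267 with a filter at 5 FPKM, 1217 with quantile normalization (59.2% higher), 1131 with pan-epithelial scaling (83.0% higher) and 1857 to 2892 with 1 library left out. The median change of all genes was 0.97, -0.01, -0.08 and 0.28 with the same sum, median-ratio, quantile and pan-epithelial scaling. Krt15, at 0.02, turned to -0.046 with limma-voom, -0.40 with median-ratio scaling, -0.016 with a pseudocount of 0.1, -0.56 with quantile normalization, -0.23 with pan-epithelial scaling, -0.067 without the parotid libraries and ranged from -0.15 to 0.17 with 1 library left out. Krt23 turned to 0.14 with the same sum and 0.13 without the parotid libraries. The log2 ratio of Krt14 to Krt5 turned to -0.033 without the parotid libraries and ranged from -0.048 to 0.15 with 1 library left out. The ranges were -0.48 to -0.31 for Krt18 to Krt8 and -0.92 to -0.48 for Krt5 to Krt8, each lowest and past the threshold without ligated 1. The causes were not tested.

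Same-numbered sham and ligated samples did not all deviate together (correlations 0.18, -0.38, -0.08, 0.33 and 0.58), and sham 4 and 5 alone matched their own number best, so the numbers were not taken as pairs. With the replicate block 4 keratins were called higher and 0 lower, where 2082 of 11856 genes were called higher and 121 lower. The standard error of Krt17 was then 0.15 and its adjusted p 0.00871, with its change of 0.80 still under the fold threshold. In the paired ratios the smallest p that 5 pairs allow is 0.0625. Depth limits Krt13 and Krt15, which rest on at most 120 and 73 reads per library.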

Other observations

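Outside the 10 members the table held 44 further keratin genes, of which 38 stayed below 1 FPKM in every library, 16 of them at 0. Only Krt80 and Krt6a were tested. Krt6a, a type II keratin of stressed and wounded stratified epithelium, was listed at 0, 0.0341, 0, 0 and 0 FPKM in sham 1 to 5 and at 1.26, 2.05, 6.36, 2.19 and 1.75 FPKM in ligated 1 to 5. These values rest on 0, 1, 0, 0 and 0 reads in sham and 43, 64, 206, 76 and 56 reads in ligated libraries, so that every ligated library, ligated 1 included, lay above every sham library. Krt6a was called higher (1.75 ± 0.27 on the log2(FPKM + 1) scale, limma adjusted p = 0.000608, a size that depends on the pseudocount). It shares sequence with Krt5, which had more reads in every library. Krt80, a type II keratin of many epithelia, did not pass (-0.26 ± 0.26, limma adjusted p = 0.390). It stood at 2.58 to 7.64 FPKM in sham and 2.54 to 6.57 FPKM in ligated glands.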
